A study of Mus musculus with 15 samples.

Results

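The BCL2 family controls whether the outer membrane of the mitochondrion stays sealed, and 10 of its genes were followed in cultured mouse adipocytes. They comprise the BH3-only genes Bmf, Bcl2l11, Bbc3, Bid and Bik, the anti-apoptotic genes Bcl2, Bcl2l1 and Mcl1, and the effector genes Bax and Bak1. All 10 were among the 24421 genes of the deposited count table, and 9 passed the filter on low counts, Bik being the exception. The genes were chosen by name, with results of these libraries already known, among them the low level of Bmf after 4 h of forskolin. Their levels and fold changes are therefore a description, and no p-value is printed for them. Rose and fell, and counts of called members, mark an adjusted p under 0.05 in a test across all genes.

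The cells were MAP cells, a single immortalized line of mouse adipocyte progenitors. Every group, vehicle included, had first been made into adipocytes with insulin, isobutylmethylxanthine (a phosphodiesterase inhibitor that raises cAMP), dexamethasone and rosiglitazone, followed by insulin and rosiglitazone. Rosi3D cells were then given rosiglitazone, a PPARγ agonist, for 3 days. Forskolin, an activator of adenylyl cyclase, was left on other cells for 4 h in the group FSK4h, for 1 day in FSK1D and for 3 days in FSK3D. Control cells received vehicle. Each group had 3 libraries of total RNA depleted of ribosomal RNA. Nothing in the labels says that they came from separate cultures, so the spread between them, and any p-value, may be technical. The sources used here state neither the doses given to the differentiated cells nor when the vehicle cells were harvested.

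BCL2 family proteins act through a shared helix, the BH3 domain. BAX and BAK can form pores in the outer mitochondrial membrane that release cytochrome c. BCL2, BCL-XL (encoded by Bcl2l1) and MCL1 hold BAX and BAK in check, and BH3-only proteins such as BIM (Bcl2l11), PUMA (Bbc3), BID, BMF and BIK bind these guards or activate the pore formers. BBC3 is a known target of p53 and BCL2L11 of FOXO factors.

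Promoter letters are shown for Bmf, Bbc3 and Bcl2, the members with the lowest fold changes after 4 h of forskolin, and for Bcl2l11, the BH3-only gene that was above vehicle at the later forskolin times. Each run is RefSeq sequence of GRCm38.p6 from 250 to 11 bases before an annotated start, read 5′ to 3′ on the gene's strand. Capitals mark TGACG or its reverse complement CGTCA, the short core of the cAMP response element, and TGTTTAC or its reverse complement GTAAACA, a FOXO motif.
Bmf, chr2:118549697-118549936, minus strand: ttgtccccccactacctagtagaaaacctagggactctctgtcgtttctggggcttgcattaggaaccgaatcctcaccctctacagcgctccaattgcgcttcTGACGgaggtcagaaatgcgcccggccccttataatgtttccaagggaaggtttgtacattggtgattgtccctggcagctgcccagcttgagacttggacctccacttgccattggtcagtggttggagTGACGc
Bbc3, chr7:16309333-16309572, plus strand: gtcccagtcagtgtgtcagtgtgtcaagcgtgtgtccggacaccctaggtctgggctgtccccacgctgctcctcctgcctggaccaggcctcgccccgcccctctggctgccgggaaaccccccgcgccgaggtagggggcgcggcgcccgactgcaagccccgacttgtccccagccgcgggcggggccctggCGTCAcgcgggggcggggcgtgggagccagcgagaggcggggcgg
Bcl2, chr1:106714301-106714540, minus strand: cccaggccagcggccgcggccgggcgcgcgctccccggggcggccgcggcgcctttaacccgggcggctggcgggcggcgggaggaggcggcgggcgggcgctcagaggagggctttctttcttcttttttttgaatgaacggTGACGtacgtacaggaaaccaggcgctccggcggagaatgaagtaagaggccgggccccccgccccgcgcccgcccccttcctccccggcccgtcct
Bcl2l11, chr2:128125788-128126027, plus strand: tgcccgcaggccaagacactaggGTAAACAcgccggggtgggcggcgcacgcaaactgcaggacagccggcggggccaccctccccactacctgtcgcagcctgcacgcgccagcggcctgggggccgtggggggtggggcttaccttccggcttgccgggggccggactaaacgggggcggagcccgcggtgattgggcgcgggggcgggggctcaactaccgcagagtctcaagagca
For Bmf, Bbc3 and Bcl2l11, which have several annotated starts, the run shown is that of a start with a match. In the Bmf run the short core began 146 and 16 bases before the start, in the Bbc3 run 55 bases before it, and in the Bcl2 run 107 bases before it. The Bcl2l11 run held the FOXO motif 227 bases before the start. In windows of 300 bases (250 before to 50 after a start), 4 of 16 member promoters held TGACG on either strand, 25.0% against 20.8% of all 32851 promoters, so the share was near that of all promoters. The fourth was Mcl1, with its match 16 bases past the start. The full element TGACGTCA, which contains the short core, was in 0 of the 16 and in 1.79% of all promoters. TGTTTAC was in 2 of the 16, those of Bcl2l11 and a further Bbc3 start, and in 3.65% of all. The 16 windows belong to 9 of the 10 genes. Neither the short core nor the FOXO motif was found in the windows of the other 2 Bmf starts, of the other Bcl2l11 start or of the last of the 3 Bbc3 starts.

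Library totals ran from 14056200 to 56282582 counts, and Rn45s, the ribosomal RNA precursor, took 4.15% to 8.87% of them, least in FSK3D (4.15% to 5.79%). Levels are in CPM, counts set relative to library size, scaled by the trimmed mean of M values (TMM), and fold changes are log2 ± standard error (SE). With library size alone in place of TMM, the median of all tested genes in FSK4h against vehicle was -0.23 in place of -0.035. All 5 listed markers of mature adipocytes were above 1 CPM in each group, and their summed level was 7531 to 8264 CPM in Rosi3D and 3063 to 3494 CPM in vehicle. In the forskolin series that sum was 3273 to 3625 CPM at 4 h, 2129 to 2603 CPM at 1 day and 4468 to 4769 CPM at 3 days. The 5 leukocyte markers summed to at most 5.15 CPM in any library, and Ptprc, which marks all leukocytes, averaged at most 0.0519 CPM in any group. The 4 endothelial markers summed to at most 9.23 CPM. The 5 adipocyte progenitor markers summed to 377 to 418 CPM in Rosi3D and 719 to 763 CPM in vehicle, and to 622 to 702 CPM at 4 h, 905 to 943 CPM at 1 day and 712 to 779.7 CPM at 3 days of forskolin. Ucp1, Cidea and Cox7a1, markers of brown or beige adipocytes, summed to 50.1 to 66.8 CPM in Rosi3D and 6.33 to 7.85 CPM in vehicle, and to 14.2 to 20.6 CPM at 4 h, 7.71 to 9.65 CPM at 1 day and 28.9 to 35.4 CPM at 3 days. The markers of dividing cells (Mki67, Top2a and Ccnb1) summed to 292 to 329.5 CPM in Rosi3D and 767 to 830.0 CPM in vehicle, and to 704 to 716 CPM at 4 h, 969 to 986 CPM at 1 day and 465 to 497 CPM at 3 days. Within a list the markers did not always move together. Ucp1 averaged 0.0753 CPM in vehicle, 0.827 CPM in Rosi3D, 8.42 CPM at 4 h and 5.25 CPM at 3 days of forskolin. Cidea averaged 40.7 CPM in Rosi3D and 13.3 CPM at 3 days of forskolin. From vehicle to 4 h, the progenitor marker Pdgfra went from 209 to 373 CPM and Pdgfrb from 402 to 154 CPM. At 1 day the progenitor marker Ly6a averaged 431 CPM, against 121 CPM in vehicle, and Pdgfrb averaged 209 CPM. Dlk1 and Cd34 of that list averaged at most 1.14 and 1.48 CPM in any group. From vehicle to 1 day, Adipoq of the mature list went from 1528 to 693 CPM and Cidec from 278 to 397 CPM. The part of these shifts in the differences reported here was not tested. Fewer cells of a type and less RNA per cell cannot be told apart in such bulk samples.

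Bmf (chromosome 2, 118528757 to 118549687, minus strand, GRCm38) encodes a BH3-only protein known to be held on the actin cytoskeleton. It had 29.5, 31.9 and 28.7 CPM in vehicle, 1.54, 2.06 and 1.98 CPM at 4 h, 20.4, 18.7 and 20.7 CPM at 1 day and 25.5, 28.0 and 27.3 CPM at 3 days of forskolin. The FSK4h libraries were far below all others, and each later time lay nearer to vehicle without overlapping it. Bmf fell by 4.03 ± 0.12 on the log2 scale in FSK4h, 16.4-fold lower than in vehicle, the seventh lowest fold change of 14421 tested genes. It was still lower at 1 day (-0.59 ± 0.092), and at 3 days its fold change of -0.16 ± 0.091 was not called. FSK1D stood 10.8-fold above FSK4h (3.44 ± 0.13).

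Bmf was low with rosiglitazone as well. The Rosi3D libraries held 7.55, 8.18 and 6.03 CPM, against 29.5, 31.9 and 28.7 CPM in vehicle, with no overlap. Bmf fell by 2.05 ± 0.10 in Rosi3D, 4.13-fold lower than in vehicle. At the same 3 days it was 3.70-fold higher in FSK3D than in Rosi3D (1.89 ± 0.10). In Rosi3D, as given above, the summed markers of mature and of brown or beige adipocytes were above vehicle and those of progenitors and dividing cells below it. In FSK3D those of mature and of brown or beige adipocytes were also above vehicle and those of dividing cells below it, while those of progenitors overlapped it. The fold change of Bmf in FSK3D was -0.16 ± 0.091, not called. The part of these marker shifts in the level of Bmf was not tested.

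**Figure D1:**
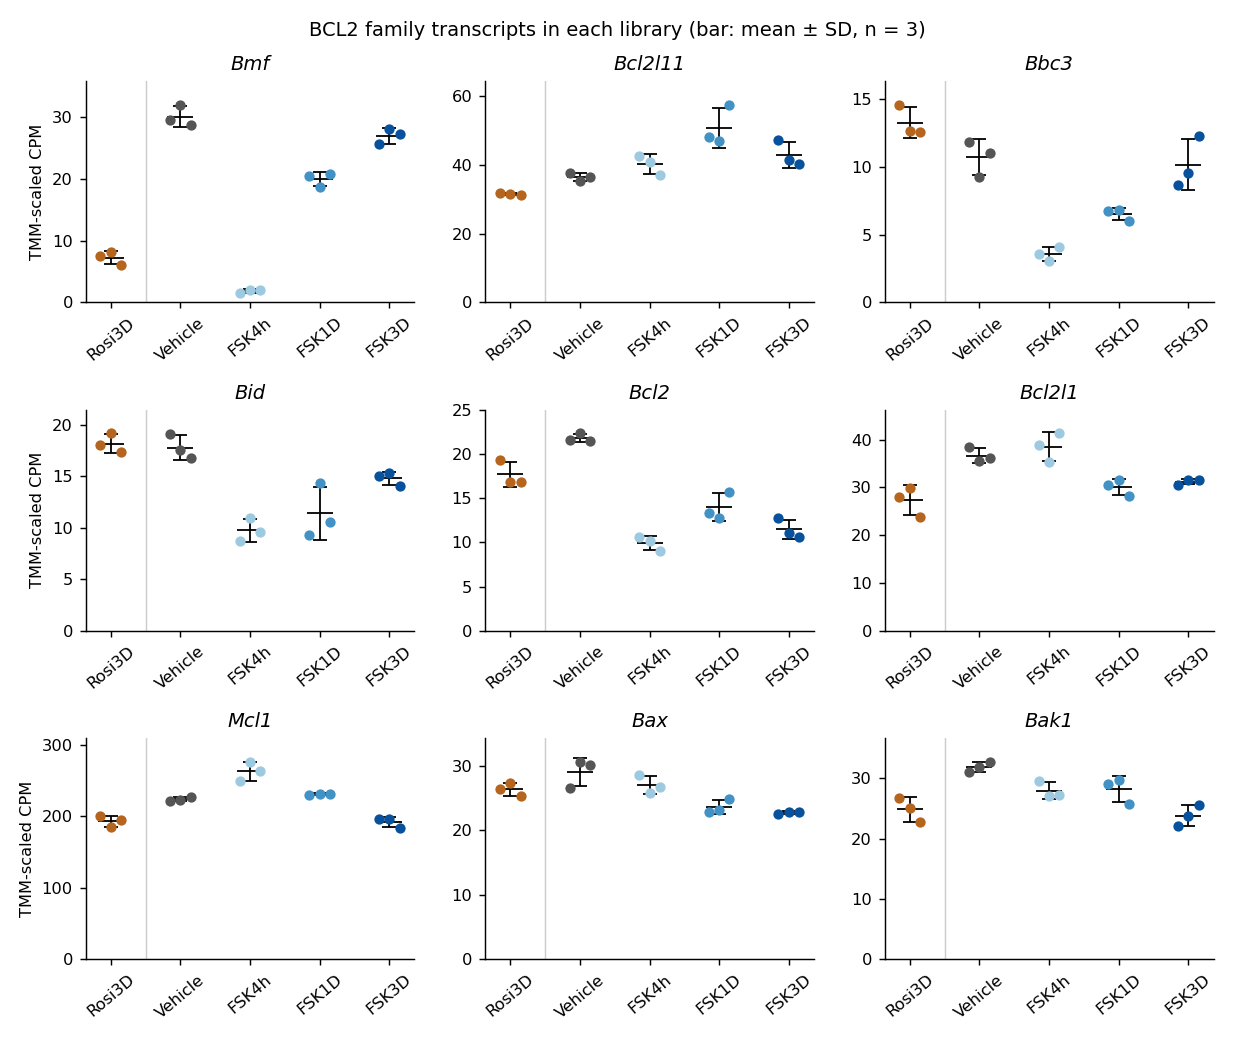
Level of each of 9 BCL2 family genes in TMM-scaled CPM (vertical axis from 0) in the 15 libraries, with Rosi3D at the left, then vehicle and the 3 forskolin times. Points are libraries and bars are mean ± SD of 3. Bmf averaged 1.86 ± 0.281 CPM in FSK4h and 7.25 ± 1.10 CPM in Rosi3D, against 30.0 ± 1.71 CPM in vehicle.

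Bbc3 (chromosome 7, 16308393 to 16318205, plus strand), the gene of PUMA, was also lowest at 4 h. It had 11.9, 9.26 and 11.01 CPM in vehicle, 3.60, 3.07 and 4.07 CPM at 4 h, 6.73, 6.85 and 6.05 CPM at 1 day and 8.69, 9.53 and 12.3 CPM at 3 days. All FSK4h and FSK1D values lay below vehicle, and the FSK3D values overlapped it. Bbc3 fell by 1.58 ± 0.14 at 4 h, 2.98-fold lower than in vehicle, and by 0.71 ± 0.13 at 1 day, and had a fold change of -0.063 ± 0.13 at 3 days. In Rosi3D it had 14.6, 12.6 and 12.6 CPM, above all vehicle libraries, and rose by 0.32 ± 0.13. That call was lost without Rosi3D S13 (0.25) or vehicle S2 (0.23).

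Bid (chromosome 6, 120891930 to 120916853, minus strand) encodes a BH3-only protein that caspase-8 cleaves, which links death receptors to the mitochondrion. It had 19.1, 17.6 and 16.8 CPM in vehicle, 8.74, 10.96 and 9.58 CPM at 4 h, 9.32, 14.3 and 10.6 CPM at 1 day and 15.1, 15.3 and 14.1 CPM at 3 days. Each forskolin group lay below vehicle, with FSK1D the most spread. On the log2 scale the falls were 0.88 ± 0.12 at 4 h, 0.64 ± 0.11 at 1 day and 0.27 ± 0.11 at 3 days. The 3-day call was lost with DESeq2 (-0.26) and in 10 of 15 fits with a library left out. In Rosi3D Bid had 18.1, 19.2 and 17.3 CPM, which overlapped vehicle, with a fold change of 0.028 ± 0.11. An exon of Bcl2l13 overlaps Bid on the opposite strand, and whether counting used strand is not given, so reads of the pair may be mixed. Bcl2l13 averaged 158 ± 1.46 CPM in FSK4h and 131 ± 2.82 CPM in vehicle, opposite in direction to Bid, with a fold change of 0.27 ± 0.046 that was 0.081 and not called with library size alone.

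Bcl2l11 (chromosome 2, 128126038 to 128162547, plus strand) encodes BIM, which binds all the main anti-apoptotic members. It had 37.7, 35.4 and 36.5 CPM in vehicle, 42.7, 40.8 and 37.0 CPM at 4 h, 48.1, 46.9 and 57.5 CPM at 1 day and 47.2, 41.4 and 40.2 CPM at 3 days. FSK1D and FSK3D libraries were all above vehicle, and FSK4h overlapped it. Bcl2l11 rose by 0.48 ± 0.074 at 1 day and by 0.23 ± 0.076 at 3 days, and the 3-day call was lost without FSK3D S10 (0.17). The 4 h difference of 0.14 ± 0.075 was not called, and it was -0.054 with library size alone. In Rosi3D the libraries had 31.7, 31.5 and 31.2 CPM, below all vehicle libraries, and the gene fell by 0.21 ± 0.075. That call was lost without vehicle S1 (-0.17) or Rosi3D S15 (-0.19). Bik (chromosome 15, 83526862 to 83544634, plus strand), a BH3-only gene whose protein sits at the endoplasmic reticulum, had 0 to 4 counts in every library and is given no fold change.

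Ratios of genes within a library do not depend on the scaling between libraries. Per kilobase of gene model, the ratio of Bmf to Bcl2l11 was 1.27 ± 0.107 in vehicle, 0.0720 ± 0.0144 at 4 h, 0.607 ± 0.0502 at 1 day and 0.973 ± 0.121 at 3 days (SD, n = 3). In Rosi3D it was 0.355 ± 0.0521. Each vehicle library held more Bmf than Bcl2l11 per length, and each FSK4h, FSK1D and Rosi3D library held less. The vehicle order rests on gene model lengths of 4633 bases for Bmf and 7137 for Bcl2l11, which may differ from the transcripts present. In CPM, not divided by length, each vehicle library held less Bmf than Bcl2l11. The 4 tested BH3-only members summed to 25.7 to 27.7 CPM per kilobase in vehicle, 12.7 to 13.5 at 4 h, 19.5 to 21.6 at 1 day and 24.5 to 25.2 at 3 days. The Rosi3D libraries summed to 21.2 to 23.0. Bcl2l11 made up 19.4% ± 0.448 of that sum in vehicle, 43.3% ± 3.22 at 4 h, 34.3% ± 3.84 at 1 day and 24.3% ± 2.43 at 3 days. BH3-only genes outside the members, such as Bad and Pmaip1, are not in the sum, so these shares are of the members alone. Bad averaged 12.1 CPM per kilobase in vehicle and 8.20 at 4 h, and Pmaip1 6.44 and 7.61.

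**Figure D2:**
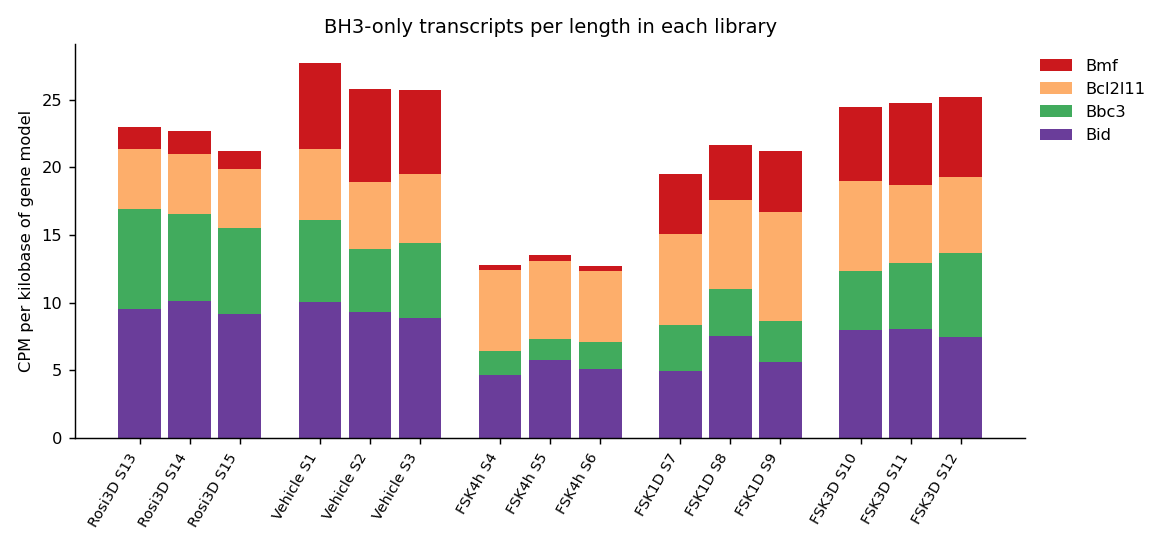
Stacked bars, 1 per library, of the levels of the 4 tested BH3-only members in CPM per kilobase of gene model (vertical axis from 0), with Rosi3D at the left, then vehicle and the 3 forskolin times. BH3-only genes outside the members, such as Bad and Pmaip1, are not included. The FSK4h libraries sum to 12.7 to 13.5, with Bmf 2.60% to 3.36% of each, against 25.7 to 27.7 in vehicle, with Bmf 22.9% to 26.7%.

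Bcl2 (chromosome 1, 106538178 to 106714274, minus strand), the founding anti-apoptotic member, was lower than vehicle in every treated group. It had 21.5, 22.3 and 21.5 CPM in vehicle, 10.6, 10.2 and 9.04 CPM at 4 h, 13.3, 12.8 and 15.7 CPM at 1 day and 12.7, 11.03 and 10.6 CPM at 3 days. No forskolin library reached a vehicle value. On the log2 scale Bcl2 fell by 1.13 ± 0.10 at 4 h, 0.64 ± 0.098 at 1 day and 0.93 ± 0.10 at 3 days. Between FSK3D and FSK4h its difference of 0.20 ± 0.11 was not called, although with library size alone (0.38) it was. Rosi3D libraries had 19.3, 16.9 and 16.9 CPM, also below vehicle (-0.29 ± 0.095), and FSK3D was below Rosi3D (-0.63 ± 0.10).

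Mcl1 (chromosome 3, 95658788 to 95663176, plus strand), whose protein is known for its fast turnover, had the highest level per length of the members in each group. Its libraries had 221, 223 and 227 CPM in vehicle, 249, 276 and 263 CPM at 4 h, 229, 232 and 231 CPM at 1 day and 196, 196 and 183 CPM at 3 days. FSK4h and FSK1D libraries were all above vehicle and FSK3D libraries all below. Mcl1 rose by 0.23 ± 0.045 at 4 h, a call that was lost with library size alone (0.038). Its fold change was 0.044 ± 0.045 at 1 day, not called, and it fell by 0.22 ± 0.046 at 3 days. Rosi3D libraries had 200.1, 184 and 194 CPM and the gene fell by 0.21 ± 0.045. Mcl1 made up 82.1% to 85.2% of the summed CPM per kilobase of Mcl1, Bcl2l1 and Bcl2 in Rosi3D and 81.1% to 82.2% in vehicle. The forskolin libraries had 84.0% to 86.5% at 4 h, 85.2% to 85.9% at 1 day and 82.3% to 83.4% at 3 days.

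Bcl2l1 (chromosome 2, 152780668 to 152831728, minus strand), the gene of BCL-XL, ranged over 35.5 to 38.4 CPM in vehicle, 35.4 to 41.4 CPM at 4 h, 28.2 to 31.5 CPM at 1 day and 30.6 to 31.6 CPM at 3 days. The 4 h libraries overlapped vehicle (0.073 ± 0.075, and -0.12 with library size alone), and the later ones lay below it, with falls of 0.29 ± 0.076 at 1 day and 0.23 ± 0.077 at 3 days on the log2 scale. The 3-day call was lost without vehicle S1 (-0.18) or FSK3D S10 (-0.21). In Rosi3D it ranged over 23.9 to 30.0 CPM and fell by 0.42 ± 0.076. The ratio of Bcl2 to Bcl2l1 per length was 0.107 ± 0.0149 in FSK4h and 0.246 ± 0.0142 in vehicle, with every FSK4h library below every vehicle library.

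The effectors differed less from vehicle than Bmf, Bbc3 or Bcl2 did at 4 h. Bax (chromosome 7, 45461697 to 45466898, minus strand) ranged over 26.6 to 30.6 CPM in vehicle, 25.8 to 28.6 CPM at 4 h, 22.8 to 24.8 CPM at 1 day and 22.5 to 22.9 CPM at 3 days. It fell by 0.30 ± 0.075 at 1 day and 0.35 ± 0.076 at 3 days. At 4 h its fold change was -0.10 ± 0.074, not called except with library size alone (-0.29). In Rosi3D it was -0.14 ± 0.074, called only with library size alone (-0.17), with libraries of 25.3 to 27.3 CPM. Bak1 (chromosome 17, 27019810 to 27029009, minus strand) ranged over 31.0 to 32.7 CPM in vehicle, 27.1 to 29.5 CPM at 4 h, 25.8 to 29.8 CPM at 1 day and 22.1 to 25.6 CPM at 3 days. It fell by 0.19 ± 0.077 at 4 h, a call that was lost with DESeq2 (-0.16) and in 10 of 15 fits with a library left out, while with library size alone the value was -0.38 and called. Its 1-day fold change of -0.18 ± 0.077 was called with library size alone only (-0.20). It fell by 0.42 ± 0.079 at 3 days and by 0.35 ± 0.077 in Rosi3D, where it ranged over 22.7 to 26.8 CPM. Bak1 shares exonic bases with Ggnbp1 on the other strand, which averaged 0.972 ± 0.249 CPM in FSK4h and 2.17 ± 0.989 CPM in vehicle. Per length, Bax was above Bak1 in each group, with a ratio of 2.45 ± 0.158 in Rosi3D and 2.10 ± 0.117 in vehicle.

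Of the 9 tested members, 1 rose and 5 fell in FSK4h against vehicle, while 59.0% of all tested genes were called, 28.4% higher and 30.7% lower. The 4 h split became 0 higher and 6 lower when TMM was left out, and that of all tested genes 17.5% higher and 46.5% lower. In FSK1D 1 rose and 6 fell, with 40.2% of all genes called, 19.5% higher and 20.7% lower. In FSK3D 1 rose and 6 fell, with 52.9% called, 25.9% higher and 27.0% lower, and without FSK3D S10 there were 4 calls. Over the fits with a library left out, 6822 to 7733 of all genes were called in that comparison. In Rosi3D 1 rose and 6 fell, with 60.6% called, 28.6% higher and 32.0% lower. The median log2 fold change of the 9 was -0.19 at 4 h, -0.30 at 1 day, -0.23 at 3 days and -0.21 in Rosi3D. Over all tested genes these medians were -0.035, -0.019, 0.0088 and -0.012. The comparisons share the vehicle libraries. Falls of at least 2-fold were called for Bmf, Bbc3 and Bcl2 at 4 h, where 6.30% of all tested genes fell that far, and for Bmf in Rosi3D, where 7.96% did. No member was called at that size at 1 or 3 days of forskolin against vehicle, where 7.30% and 8.23% of all tested genes were.

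**Figure D3:**
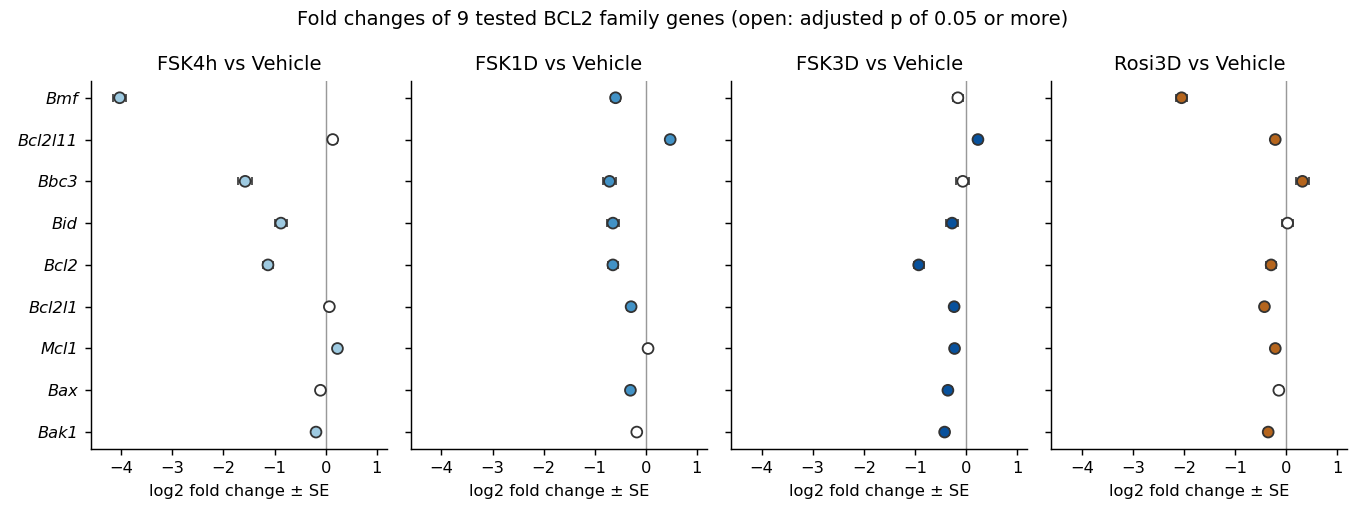
log2 fold change ± SE (horizontal axis) against vehicle of 9 members (rows) in FSK4h, FSK1D, FSK3D and Rosi3D, with filled points for an adjusted p under 0.05. Bmf lies at -4.03 at 4 h, -0.59 at 1 day and -0.16 at 3 days of forskolin and at -2.05 in Rosi3D.

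Between the forskolin times, 4 members rose and 3 fell in FSK1D against FSK4h, with 57.3% of all genes called, 28.4% higher and 28.9% lower. That split depended on the scaling. Scaled by library size alone, 6 members were higher and 1 lower, beside 41.4% and 18.8% of all genes, and Mcl1 (-0.022) and Bax (-0.035) were no longer called. In FSK3D against FSK1D 3 rose and 4 fell, with 51.0% called, 25.2% higher and 25.8% lower, and without FSK1D S9 there were 4 calls. Over the fits with a library left out, 6720 to 7374 of all genes were called in that comparison. In FSK3D against FSK4h 3 rose and 4 fell, with 68.5% called, 35.0% higher and 33.5% lower. Here too the split moved when TMM was left out, to 5 members higher and 1 lower, beside 45.5% and 24.4% of all genes. Bak1 (-0.051), Bax (-0.073) and Bcl2l1 (-0.13) were then not called, and Bcl2l11 (0.28) was. Those higher at 3 days than at 4 h were Bmf (3.87 ± 0.12), Bbc3 (1.51 ± 0.15) and Bid (0.60 ± 0.12), and Mcl1 was among those lower (-0.46 ± 0.046, and -0.27 with library size alone).

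FSK3D and Rosi3D share the duration of treatment. In FSK3D against Rosi3D 3 members were higher and 4 lower, with 43.1% of all genes called, 22.5% higher and 20.7% lower. Bmf, Bcl2l11 (0.45 ± 0.076) and Bcl2l1 (0.19 ± 0.078) were higher in FSK3D, and Bcl2, Bbc3 (-0.38 ± 0.13), Bid (-0.30 ± 0.11) and Bax (-0.21 ± 0.076) were lower. There were 3 calls without FSK3D S10 and 3 without Rosi3D S13, with Bcl2l1, Bbc3, Bid and Bax not called in either fit. Over the fits with a library left out, 5445 to 6312 of all genes were called in this comparison. Bbc3 was also not called without FSK3D S11 (-0.34), Bid without FSK3D S12 (-0.27) or Rosi3D S14 (-0.27), and Bax without Rosi3D S14 (-0.19). The Bcl2l1 call was also lost with DESeq2 (0.19), with RLE size factors in place of TMM (0.19) and without the filter on low counts (0.19). It was lost too with only the 2 groups compared (0.19) and with halved counts (0.18). Most fits with a library left out also lost it, with the smallest value without Rosi3D S15 (0.11).

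In order of CPM per kilobase, Mcl1, Bax and Bak1 led in every group. In Rosi3D Mcl1 had 55.3 ± 2.28, Bax 30.3 ± 1.14 and Bak1 12.4 ± 1.02 CPM per kilobase. In vehicle Mcl1 had 64.2 ± 0.888, Bax 33.5 ± 2.50 and Bak1 15.9 ± 0.435. Bcl2 was lowest of the 9 in vehicle (2.81 ± 0.0609), FSK1D (1.80 ± 0.204) and FSK3D (1.48 ± 0.144), and Bmf was lowest in FSK4h (0.402 ± 0.0607) and Rosi3D (1.57 ± 0.238). Neighbours in the order whose libraries overlapped were Bid and Bcl2l1 in Rosi3D, Bbc3 and Bcl2l11 in vehicle, Bcl2l11 and Bid in FSK4h and FSK1D, and Bcl2l11, Bmf and Bbc3 in FSK3D.

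The 5 tested genes whose log2 CPM followed Bmf most closely over the 15 libraries were Rgma, a repulsive guidance molecule (Pearson's r = 0.981), Sept8, a septin (0.979), Capn5, a calpain (0.977), Pik3ip1, an inhibitor of PI3 kinase (0.977), and Sh3d19, an SH3 domain protein (0.977). These coefficients describe libraries that share groups and scaling. Pik3ip1 averaged 3.12 ± 0.401 CPM in FSK4h and 5.93 ± 0.506 CPM in Rosi3D, against 13.9 ± 0.832 CPM in vehicle. It differed most of the 5, and all differed less than Bmf (-4.03 in FSK4h and -2.05 in Rosi3D). Log2 fold changes in FSK4h were -2.17 for Pik3ip1, -1.50 for Rgma, -1.46 for Capn5, -0.98 for Sh3d19 and -0.80 for Sept8. In Rosi3D they were -1.21, -0.65, -0.51, -0.66 and -0.34 in the same order.

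Counts for lists of other apoptosis genes are set against all tested genes, of which 28.4% rose and 30.7% fell at 4 h, 19.5% and 20.7% at 1 day, 25.9% and 27.0% at 3 days, and 28.6% and 32.0% in Rosi3D, with medians of -0.035, -0.019, 0.0088 and -0.012. These lists too were chosen with earlier results of these data known. Outside the further BCL2 family, the genes named are among those with the largest called changes. Adjusted p-values of listed genes are therefore a description of genes picked on the same libraries. The 4 h split of every list depended on the scaling. Without TMM, genes called higher and lower at 4 h numbered 2 and 3 for the further BCL2 family, 2 and 6 for the apoptosome list, 1 and 2 for inhibitors of apoptosis, 3 and 4 for death receptors, 1 and 7 for the p53 list, and 2 and 1 for factors that act on members. Of all tested genes, 17.5% were then higher and 46.5% lower. The list of factors that act on members had 1 and 4 at 1 day, beside 17.2% and 23.5% of all tested genes.

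Of 15 further BCL2 family genes, 10 were tested. In FSK4h 3 rose and 2 fell (median 0.19), and in Rosi3D 5 rose and 1 fell (median 0.27). In FSK1D 4 rose and 0 fell (median 0.23), and in FSK3D 4 rose and 1 fell (median 0.28). For the falls in FSK1D, edgeR at an unadjusted p under 0.05 and DESeq2 also gave 0. Bnip3, a mitochondrial membrane protein known as a mitophagy receptor, rose by 1.08 ± 0.084 at 4 h (edgeR adjusted p = 9.72e-09), 1.43 ± 0.084 at 1 day (4.81e-10), 1.67 ± 0.084 at 3 days (4.67e-11) and 1.53 ± 0.084 in Rosi3D (7.80e-11). Its relative Bnip3l rose in these 4 comparisons too, by 0.42 ± 0.062 at 4 h (0.23 with library size alone) and 0.95 ± 0.061 in Rosi3D (edgeR adjusted p = 5.76e-07 and 8.63e-15). Bcl2l13, also a mitophagy receptor, averaged 237 ± 12.2 CPM in Rosi3D and 131 ± 2.82 CPM in vehicle (0.86 ± 0.046, edgeR adjusted p = 1.28e-17). The anti-apoptotic Bcl2l2 rose by 0.43 ± 0.078 in FSK3D and 0.43 ± 0.076 in Rosi3D (edgeR adjusted p = 1.49e-05 and 8.20e-06).

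Among pro-apoptotic genes of that list, Bok, a relative of Bax, fell at 4 h (-0.76 ± 0.098, edgeR adjusted p = 2.63e-06) and rose in Rosi3D (0.49 ± 0.094, 1.80e-04). Bad, a BH3-only gene whose protein is silenced by phosphorylation, averaged 12.5 ± 1.52 CPM in FSK4h and 18.4 ± 1.53 CPM in vehicle (-0.57 ± 0.10, edgeR adjusted p = 1.32e-05). Pmaip1, which encodes the MCL1 binder NOXA, averaged 7.31 ± 1.43 CPM in Rosi3D and 17.1 ± 0.808 CPM in vehicle (-1.20 ± 0.12, edgeR adjusted p = 6.58e-10). It rose at 1 day of forskolin (0.45 ± 0.11, 0.00162) and fell at 3 days (-0.39 ± 0.12, 0.00628). The 3 listed Bcl2a1 genes, Bcl2l14 and Hrk did not pass the filter and averaged at most 0.202 CPM in any group.

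The list of 12 apoptosome, mitochondrial factor and caspase genes had 4 that rose and 4 that fell in FSK4h (median 0.030). In Rosi3D 5 rose and 4 fell (median -0.020). In FSK1D 4 rose and 2 fell (median 0.091), and in FSK3D 6 rose and 5 fell (median 0.11). Cycs encodes cytochrome c, which serves both respiration and the apoptosome. It rose in each comparison with vehicle, with 96.8 ± 0.606 CPM in Rosi3D against 22.6 ± 1.78 CPM in vehicle (2.10 ± 0.061, edgeR adjusted p = 1.93e-24). Casp9, the initiator caspase of the apoptosome, fell at 4 h (-0.89 ± 0.080, edgeR adjusted p = 1.36e-11) and 1 day (-0.40 ± 0.079, 9.77e-05). It fell at 3 days as well (-0.20, and -0.24 to -0.16 with a library left out). Casp8, the initiator caspase of death receptors, rose at 4 h (0.51 ± 0.065, edgeR adjusted p = 3.09e-08), and its value with library size alone was 0.31.

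Of 6 inhibitors of apoptosis, 2 rose and 2 fell at 4 h, 2 rose and 0 fell at 1 day, 3 rose and 1 fell at 3 days, and 3 rose and 1 fell in Rosi3D. Their medians were -0.10 at 4 h, 0.11 at 1 day, 0.16 at 3 days and 0.16 in Rosi3D. At 1 day edgeR at an unadjusted p under 0.05 and DESeq2 gave 0 falls as well. Xiap, a direct caspase inhibitor, rose by 0.54 ± 0.056 at 4 h (0.34 with library size alone) and 0.66 ± 0.056 in Rosi3D (edgeR adjusted p = 1.30e-09 and 1.34e-11). Birc5, which encodes survivin and is made mostly in dividing cells, averaged 8.26 ± 0.0403 CPM in Rosi3D and 23.5 ± 1.64 CPM in vehicle (-1.51 ± 0.091, edgeR adjusted p = 3.25e-16), in the libraries whose summed dividing-cell markers are given above.

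On the list of p53 and its targets outside the family, 2 of 11 genes rose and 6 fell at 4 h. At 1 day 1 rose and 8 fell, at 3 days 7 rose and 2 fell, and in Rosi3D 4 rose and 3 fell. Their medians were -0.22 at 4 h, -0.37 at 1 day, 0.21 at 3 days and 0.027 in Rosi3D. Trp53inp1, a p53-induced protein, averaged 62.6 ± 6.93 CPM in FSK4h and 259.5 ± 12.4 CPM in vehicle (-2.05 ± 0.089, edgeR adjusted p = 9.72e-12). Sesn1, a sestrin induced by p53, fell at 4 h (-1.44 ± 0.082, edgeR adjusted p = 9.69e-17), as did the growth arrest gene Gadd45a (-0.95 ± 0.14, 7.77e-07). The cell cycle inhibitor Cdkn1a, a classical p53 target, rose at 4 h (0.83 ± 0.046, edgeR adjusted p = 3.20e-17). Trp53, the p53 gene itself, fell at 3 days (-1.08 ± 0.089, edgeR adjusted p = 2.28e-12) and in Rosi3D (-0.81 ± 0.085, 3.98e-10). Its fall at 1 day was smaller (-0.23 ± 0.083, edgeR adjusted p = 0.0251), with -0.26 to -0.17 when a library was left out.

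Of 8 death receptor and adaptor genes, 3 rose and 2 fell at 4 h, 4 rose and 1 fell at 1 day, 3 rose and 1 fell at 3 days, and 1 rose and 3 fell in Rosi3D. The medians of this list were 0.0061, 0.15 and 0.051 over the forskolin times and -0.14 in Rosi3D. Fas, a death receptor and p53 target, averaged 3.50 ± 0.379 CPM in FSK4h and 9.82 ± 0.329 CPM in vehicle (-1.50 ± 0.13, edgeR adjusted p = 8.46e-12). The TNF receptor gene Tnfrsf1a rose at 4 h (1.03 ± 0.049, edgeR adjusted p = 6.61e-19).

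Of 12 genes whose products act on members, 9 rose and 1 fell at 4 h, 2 rose and 4 fell at 1 day, 4 rose and 1 fell at 3 days, and 3 rose and 2 fell in Rosi3D. This list had medians of 0.24, -0.022 and 0.087 over the forskolin times and 0.047 in Rosi3D. Bag3, a co-chaperone, rose by 1.81 ± 0.062 at 4 h (edgeR adjusted p = 6.04e-23). Dynll1, the dynein light chain that holds BIM, rose at 4 h (0.24 ± 0.060, edgeR adjusted p = 0.00104), a call that was lost with library size alone (0.043). It fell at 1 day (-0.20 ± 0.061, edgeR adjusted p = 0.00972), which was lost without vehicle S3 (-0.14) or FSK1D S7 (-0.15), and fell in FSK3D (-0.47 ± 0.063, edgeR adjusted p = 9.76e-08) and Rosi3D (-0.64 ± 0.062, 6.38e-11). Foxo1, which encodes a FOXO factor, had a rise at 4 h (0.18 ± 0.059, edgeR adjusted p = 0.00855) that turned to -0.00966 with library size alone and was lost without vehicle S1 (0.14). It fell at 1 day (-0.21 ± 0.060, edgeR adjusted p = 0.00514), a call lost without vehicle S2 (-0.16) or FSK1D S9 (-0.14). It rose in FSK3D (0.51 ± 0.059, edgeR adjusted p = 1.58e-08) and Rosi3D (0.55 ± 0.059, 1.59e-09).

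**Figure D4:**
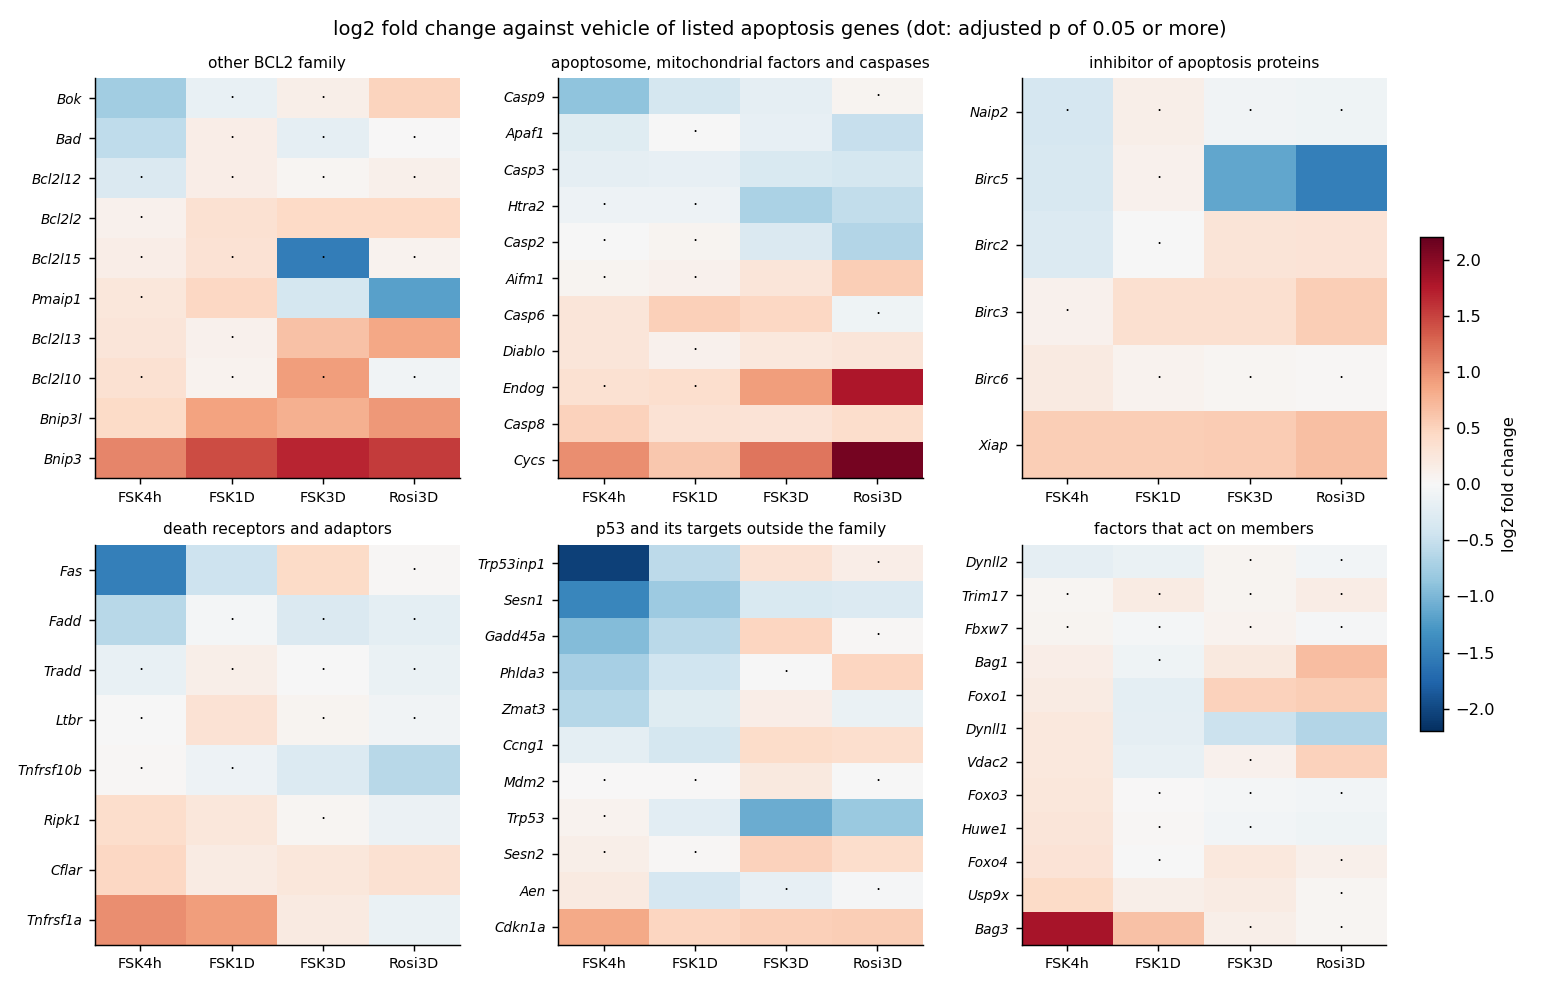
log2 fold change against vehicle of the tested listed genes reported here outside the 10 members, in FSK4h, FSK1D, FSK3D and Rosi3D, grouped by list. Red is higher and blue lower than vehicle, and a dot marks an adjusted p of 0.05 or more. Trp53inp1, Fas and Sesn1 are the lowest in FSK4h, at -2.05, -1.50 and -1.44, and Bnip3 is higher in all 4 columns.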

How the data were processed

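RNA of 15 libraries of MAP adipocytes in 5 groups of 3 was analysed. The values deposited by the authors are raw counts of reads on each gene, made with fastp, STAR and featureCounts on GRCm38 (mm10), per the submitters' processing notes. Not given in the sources used here are versions, annotation and the handling of strand and read pairs. Counts of 2 outnumbered counts of 1, with 407 to 539 genes at a count of 1 and 721 to 907 at a count of 2 per library. Of values above 100 and up to 1000 the even share was 49.2% to 51.3%. Whether both mates of a pair were counted cannot be told from this. Gene model lengths came with the table.

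Columns name a group and a running number (S1 to S15), not the labels' replicate number. Library pairs of a group differed by 3.20 to 11.8 chi-square per degree of freedom, so none was merged. In R 4.3.3, edgeR 4.0.16 (filterByExpr, TMM, robust quasi-likelihood fit of all 15 libraries, 10 residual degrees of freedom) tested 14421 of 24421 genes, two-sided, with Benjamini-Hochberg adjustment over all of them and a threshold of 0.05. The common biological coefficient of variation was 5.97%. The SE of a fold change is its absolute value over the root of F. The fit was tested on simulated data. Alternatives were DESeq2 1.42.0, other scalings and filters, halved counts, fits of only the groups compared, and leaving out each library.

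The members and the gene lists were chosen with earlier results of these data known. All members are named; of other lists, up to 4 called genes per comparison with vehicle with the largest absolute fold change could be named, of the other BCL2 family list any tested gene, and for Bmf the 5 genes most correlated with it (log2 CPM, prior count 2). Positions are from GENCODE vM21 and promoters from RefSeq GRCm38.p6. Protein sequences were not used here. The rule would also name 1 listed gene that is not reported here and that stays in the counts over its list.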

Additional observations from a re-analysis of the deposited data

Results flagged for a closer look

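For several genes the difference from vehicle at 1 forskolin time ran opposite to that at another. For the listed genes both differences were called, and so was the difference between the times. The genes were picked for that, on the same libraries. The log2 difference between the times is therefore given with its SE as a description, without a p-value. All of these comparisons share the vehicle libraries, and each value here is the later time minus the earlier.

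In FSK1D minus FSK4h, Foxo1 differed by -0.39 ± 0.059, Dynll1 by -0.43 ± 0.061 and Vdac2, a mitochondrial channel that holds BAK, by -0.41 ± 0.051. With library size alone these were -0.23, -0.27 and -0.24, and the 4 h values against vehicle were no longer called, at -0.00966 for Foxo1, 0.043 for Dynll1 and 0.046 for Vdac2. At 1 day the calls against vehicle of these 3 genes were each lost without 1 of 2 libraries, vehicle S2 or FSK1D S9 for Foxo1 and Vdac2 and vehicle S3 or FSK1D S7 for Dynll1.

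In FSK3D minus FSK4h, Fas differed by 1.91 ± 0.13, Trp53inp1 by 2.38 ± 0.090 and Gadd45a by 1.42 ± 0.14. The inhibitor of apoptosis gene Birc2 differed by 0.59 ± 0.065 and Dynll1 by -0.71 ± 0.062. In FSK3D minus FSK1D, Fas differed by 0.88 ± 0.12, Trp53inp1 by 0.91 ± 0.084, Gadd45a by 1.06 ± 0.14, Foxo1 by 0.72 ± 0.060 and Pmaip1 by -0.85 ± 0.12.

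Mcl1 was picked by the order of its libraries and not by its calls, as its 1-day fold change was not called. On the TMM scale Mcl1 was above vehicle in all FSK4h and FSK1D libraries and below it in all FSK3D libraries. Its difference was -0.46 ± 0.046 in FSK3D minus FSK4h (-0.27 with library size alone) and -0.27 ± 0.046 in FSK3D minus FSK1D. Mcl1 was called lower in both of these comparisons, and the values are given as a description.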

How the results depend on the processing

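With 1 library left out in turn, the number of called members was 5 to 6 at 4 h, 7 in each fit at 1 day and 4 to 7 at 3 days of forskolin and 6 to 7 with rosiglitazone, each against vehicle. It was 3 to 7 in FSK3D against Rosi3D, 6 to 8 in FSK1D against FSK4h, 4 to 7 in FSK3D against FSK1D and 6 to 7 in FSK3D against FSK4h. Over all genes, the calls in these fits numbered 7878 to 8622 at 4 h, 5105 to 5933 at 1 day and 6822 to 7733 at 3 days. They numbered 8104 to 8846 with rosiglitazone, 5445 to 6312 in FSK3D against Rosi3D and 7667 to 8383 in FSK1D against FSK4h. In FSK3D they numbered 6720 to 7374 against FSK1D and 9350 to 9922 against FSK4h. Under the 7 other settings the counts of called members, of all genes and of the listed genes stayed within 1.5 times. Bmf in FSK4h against vehicle lay at -4.09 to -3.88 and in Rosi3D at -2.10 to -1.93 with a library left out. No called member value changed sign. With library size alone, 6 member calls were lost, 1 at 4 h against vehicle and the others between 4 h and a later time, and 7 gained. Of the named listed genes, Birc6 in FSK4h against vehicle turned to -0.00168 with library size alone, Foxo1 to -0.00966 and Bag1 to -0.044, and the cause was not tested. Another 19 values under other settings and 56 with a library left out lost their call. Uncalled genes of the other BCL2 family list were left out of these counts after the output was seen, and some of those with low counts changed sign between settings. No paired analysis was possible because the columns carry no replicate number that matches the labels.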
